A study of Arabidopsis thaliana with 6 samples.

Results

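The nicotianamine synthase (NAS) family of Arabidopsis has 4 genes, NAS1 to NAS4, and all 4 were measured among the 32627 loci of the arrays. They were picked by locus identifier (AT5G04950, AT5G56080, AT1G09240 and AT1G56430), and the family was chosen with its levels in these arrays already known, so its levels and differences are given as a description without a test. Root RNA came from pER8::OBP4 seedlings and from pER8::GFP control seedlings (3 arrays each). Both lines carry an estradiol-inducible pER8 transgene, encoding OBP4, a DOF-family transcription factor, in one and green fluorescent protein in the other. Seedlings of both lines, 5 days old, were kept for 8 h on 10 µM estradiol, and every replicate had its own culture plates. The labels do not say how many independent transgenic lines were used, and arrays without estradiol were not analysed here, so differences between the lines that precede induction cannot be told apart from the effect of the transgene.

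Nicotianamine synthase joins S-adenosylmethionine (SAM) molecules into nicotianamine, a small chelator that binds iron, zinc, copper and nickel and keeps them soluble inside plants. Nicotianamine moves with metals in the phloem and between cells through YSL transporters and is stored in vacuoles through ZIF1. In Arabidopsis, NAS1, NAS2 and NAS4 transcripts are known to rise in iron-deficient roots, NAS2 and NAS4 to be targets of the zinc-deficiency regulators bZIP19 and bZIP23, and NAS3 to be mainly a shoot gene.

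OBP4 itself was 1.27 ± 0.12 (SE, log2) higher in OBP4 roots (limma's adjusted p = 0.00279). It stood at 15.81 ± 0.07 against 14.54 ± 0.21 in control roots (SD, n = 3 each). The OBP4 arrays (15.74 to 15.86) lay near the highest value in the arrays, 15.93, and whether that ceiling limited the difference was not tested. Root markers had array medians of 14.26 to 14.45 in OBP4 roots and 14.57 to 14.79 in control roots (9 genes), and 3 of the 9 were lower in OBP4 roots, where 8.48% of all loci were lower: COBL9 and EXPA7, of root hairs, and WER, of the epidermis. Shoot markers, 22 photosynthesis genes, varied within both groups, with array medians of 15.36, 11.06 and 13.52 in OBP4 replicates 1 to 3 and 12.02, 11.73 and 13.13 in control replicates 1 to 3. Their median difference was 0.87, beside 0.02 for all loci, and 21 of the 22 lay above 0; limma called 0 of them, and 0 had an unadjusted p below the same threshold. Whole-organ RNA does not tell fewer cells of a type from less transcript per cell. A second deposited table for the same samples followed these arrays only weakly: the deviations of loci from their own mean correlated at a median of 0.116. Under its own labels 5.55% of loci passed the test, and 0 of the 4 NAS genes. Which table is right was not settled. The results use the arrays' own tables, in which OBP4 was higher, while in the second table its difference was 0.01 ± 0.09 (SE).

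NAS1 was the family member with the greatest difference, and it was lower in OBP4 roots. NAS1 (chromosome 5, 1457645 to 1458890, reverse strand, as annotated on the array; 1 gene model, 3 probes) stood at 13.16, 12.79 and 12.93 on the log2 scale in OBP4 replicates 1 to 3, against 15.08, 15.23 and 15.34 in control replicates 1 to 3. The groups did not overlap: the nearest arrays of the 2 groups were 1.92 apart, while arrays spread over 0.37 within OBP4 roots and 0.26 within control roots. The mean was 12.96 ± 0.19 in OBP4 roots and 15.22 ± 0.13 in control roots (SD, n = 3 each), a difference of -2.26 ± 0.12 (SE), which is a 4.78-fold lower signal. Of all loci, 89 had a lower difference than NAS1. The highest value in the arrays was 15.93, and whether the NAS1 level in control roots was limited by that ceiling was not tested.

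NAS4 differed the other way. NAS4 (chromosome 1, 21136944 to 21138087, forward strand; 1 gene model, 4 probes) stood at 13.24, 13.24 and 13.31 in OBP4 roots, against 11.88, 11.72 and 12.14 in control roots. Every OBP4 array was above every control array, by at least 1.09, and the OBP4 arrays lay within 0.08 of each other while the control arrays spread over 0.42. The mean was 13.26 ± 0.04 in OBP4 roots and 11.92 ± 0.21 in control roots (SD, n = 3 each), a difference of 1.35 ± 0.12 (SE) or a 2.55-fold higher signal. At 568 loci the difference was higher still. NAS4 and NAS1 differences thus lay 3.61 apart on the log2 scale, within 1 family of enzymes with the same reaction.

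NAS2 and NAS3 moved little. NAS2 (chromosome 5, 22711402 to 22712364, reverse strand; 1 gene model, 3 probes) stood at 13.27, 13.31 and 13.23 in OBP4 roots, against 13.66, 13.54 and 13.58 in control roots. The groups did not overlap but were only 0.24 apart, with a difference of -0.32 ± 0.06 (SE), or a 1.25-fold lower signal, and 5817 loci had a lower difference. NAS3 (chromosome 1, 2984881 to 2986130, forward strand; 1 gene model, 4 probes) stood at 6.90, 6.70 and 6.33 in OBP4 roots, against 6.67, 6.35 and 6.53 in control roots. The groups of NAS3 overlapped, and the difference, 0.13 ± 0.17 (SE), was smaller than its error. NAS3 was dim throughout: only 15.3% of loci had a lower mean signal, and no detection call was used, so its presence in these roots was not established.

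**Figure D1:**
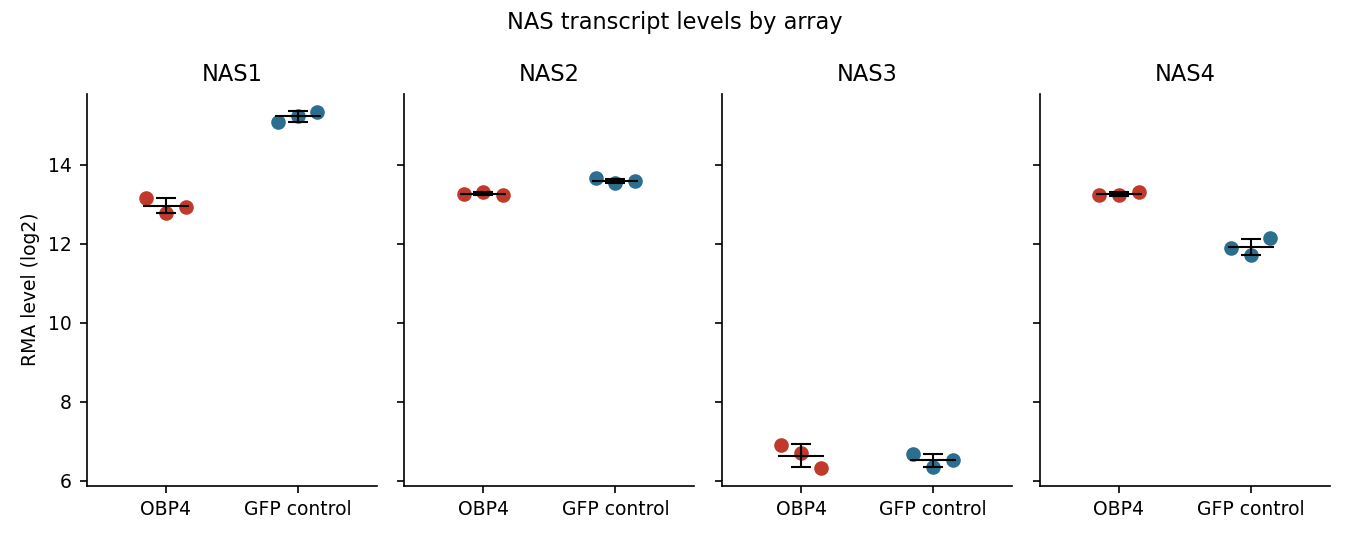
Log2 RMA level of NAS1 to NAS4 in each array (points), with the mean (bar) and SD (whiskers) of the 3 OBP4 arrays on the left and the 3 GFP control arrays on the right of each panel. NAS1 is lower in every OBP4 array (12.79 to 13.16) than in every control array (15.08 to 15.34), NAS4 is higher (13.24 to 13.31 against 11.72 to 12.14), NAS2 is slightly lower, and the groups of NAS3 overlap. Levels of different genes come from different probes and are not comparable.

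Set against all loci, 3 of the 4 NAS genes had groups that did not overlap, as had 36.9% of all loci. In the limma fit over all loci, 1 NAS gene, NAS4, was past the threshold as higher and 2, NAS1 and NAS2, as lower, where 13.7% of all loci passed in either direction; nothing is read from these counts, since the family was chosen on this contrast. NAS2 was past it in 0 of the 6 fits that left out 1 array. The median of the 4 differences was -0.10, beside 0.02 for all loci. The NAS proteins are closely related in sequence, and the probe sequences were not used here, so signal shared between family members was not tested.

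The NAS differences were also read beside the uneven shoot marker signal. NAS3, the member known from shoots, stood at 6.90, 6.70 and 6.33 in OBP4 replicates 1 to 3, whose shoot marker medians were 15.36, 11.06 and 13.52, and at 6.67, 6.35 and 6.53 in control replicates 1 to 3, with medians of 12.02, 11.73 and 13.13. With the shoot marker mean as a covariate, an alternative added after the data were seen, the difference was -2.35 for NAS1, -0.31 for NAS2, 0.09 for NAS3 and 1.32 for NAS4. With it, 1 NAS gene and not 2 was past the threshold as lower, while the SE for NAS2 was 0.08, beside 0.06 without it. Nothing is read from this count, since the family was chosen on this contrast. The part of shoot RNA in these values was not tested further.

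**Figure D2:**
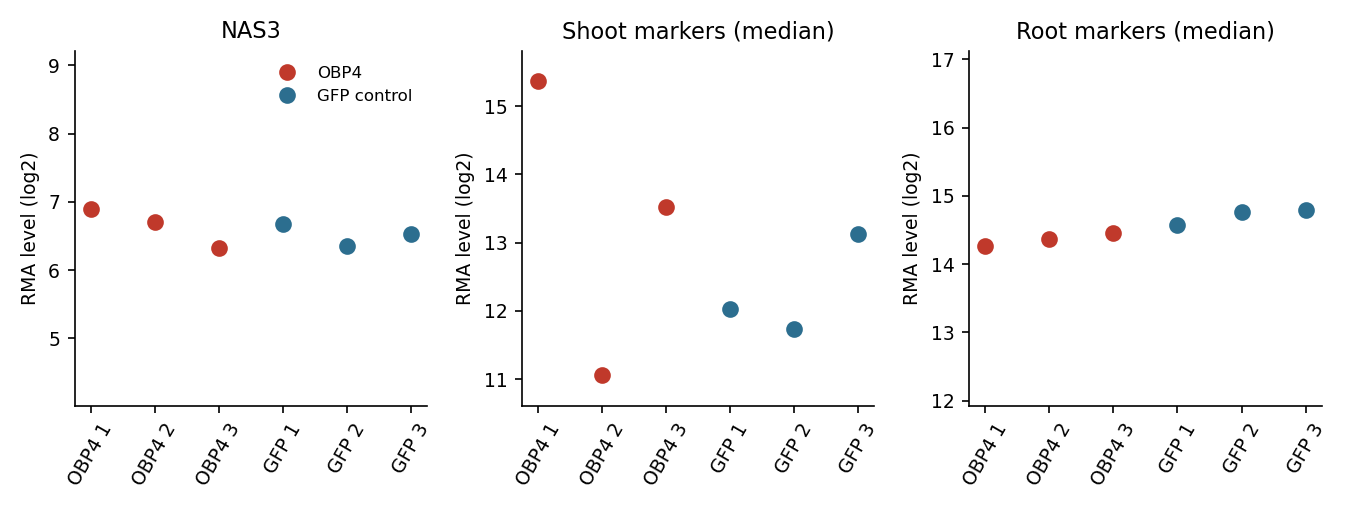
Log2 level of NAS3, the median of 22 shoot markers and the median of 9 root markers in each array (OBP4 arrays in the left 3 positions, GFP control arrays in the right 3; each y axis spans the same number of log2 units). Shoot markers range from 11.06 to 15.36 with overlapping groups, while NAS3 stays between 6.33 and 6.90.

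The known regulators of NAS genes were examined next, from a list of 20 iron and zinc regulators. Of the 20, 7 were lower in OBP4 roots, 0 were higher and 13 did not pass, where 8.48% of all loci passed as lower and 5.23% as higher; the list median was -0.30. At an unadjusted p below the same threshold, 2 were higher and 9 lower. FIT, the basic helix-loop-helix (bHLH) regulator of root iron uptake, stood at 14.10, 14.17 and 14.21 in OBP4 roots, against 15.40, 15.33 and 15.42 in control roots, a difference of -1.22 ± 0.07 (SE; limma's adjusted p = 0.000595). Every OBP4 array was below every control array.

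MYB10 and MYB72, paired MYB factors known in Arabidopsis to be needed for the rise of NAS4 under iron deficiency, were lower in OBP4 roots, where NAS4 was higher. MYB10 stood at 10.65, 10.74 and 10.82 in OBP4 roots, against 12.24, 11.74 and 11.91 in control roots (-1.22 ± 0.14, SE; limma's adjusted p = 0.00519). MYB72 stood at 6.85, 6.47 and 7.53 in OBP4 roots, against 9.40, 8.23 and 9.47 in control roots (-2.08 ± 0.44, SE; limma's adjusted p = 0.0354). Neither gene had overlapping groups. MYB72 was dim in OBP4 roots, which makes the size of its change less exact, and it passed in 1 of the 6 fits without 1 array, that without control replicate 2 (limma's adjusted p over the 6 fits, 0.0195 to 0.112).

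Among the other regulators, the iron-deficiency factor BHLH38, which pairs with FIT, was lower by -0.66 ± 0.15 (SE; limma's adjusted p = 0.0415), but passed in only 1 of the 6 fits without 1 array, that without control replicate 2 (limma's adjusted p 0.0322 to 0.127). Its near-copy BHLH39 had overlapping groups, with a difference of -0.42 ± 0.19 (SE). The remaining lower members, named after their values were seen, were BHLH101 (-0.99), AT1G74770 (-1.21) and AT1G18910 (-0.90), the last 2 annotated on the array as zinc ion binding proteins. PYE, a bHLH factor known to repress NAS4 and ZIF1, stood at 14.44, 14.35 and 14.34 in OBP4 roots, against 14.22, 14.19 and 14.20 in control roots; its difference of 0.17 ± 0.06 (SE) did not pass (limma's adjusted p = 0.14). The zinc-deficiency factors BZIP19 (0.03 ± 0.06, SE, with limma's adjusted p = 0.823) and BZIP23 (0.13 ± 0.07, SE, with limma's adjusted p = 0.315) did not pass either. BZIP19 lay at 15.40 to 15.52 over all arrays, near their highest value of 15.93, and whether that ceiling limited its difference was not tested.

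**Figure D3:**
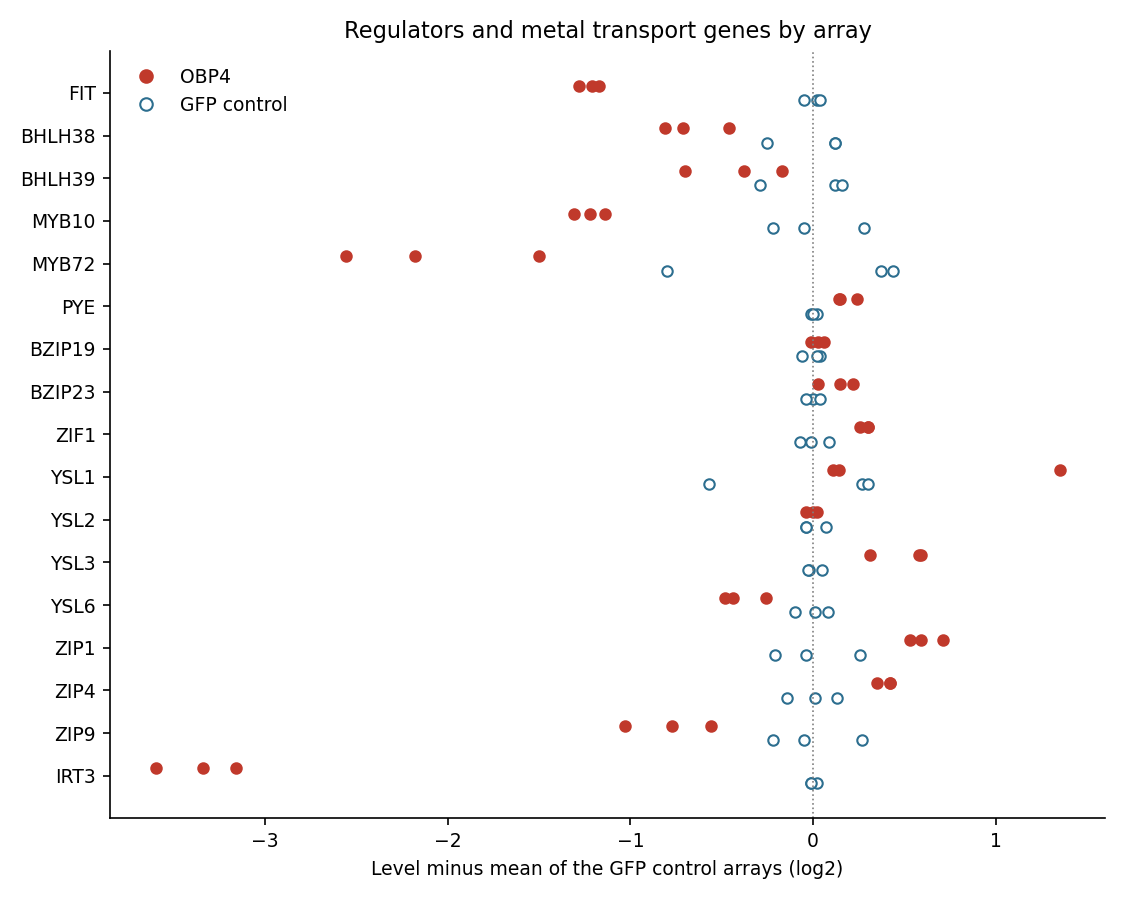
Level in each array minus the mean of the 3 GFP control arrays (log2) for regulators and for nicotianamine and zinc transport genes; filled points are OBP4 arrays and open points GFP control arrays, with OBP4 above control in each row. FIT, MYB10, MYB72 and IRT3 lie clear of their controls to the left, while PYE, BZIP19, BZIP23 and YSL2 lie near 0.

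Genes that share the regulators bZIP19 and bZIP23 with NAS2 and NAS4 went both ways. Of the 8 zinc-deficiency genes, all metal transporters of the ZIP family, 2 were higher, 2 lower and 4 did not pass, with a median of 0.07, beside 5.23% of all loci higher, 8.48% lower and a median of 0.02. IRT3, a zinc and iron transporter, stood at 11.79, 12.23 and 12.05 in OBP4 roots, against 15.38, 15.41 and 15.38 in control roots (-3.37 ± 0.12, SE; limma's adjusted p = 0.000387). This gap was wider than that of NAS1, and no arrays overlapped. ZIP1 (0.61 ± 0.14, SE; limma's adjusted p = 0.0424) and ZIP4 (0.40 ± 0.09, SE; limma's adjusted p = 0.0407; named after its values were seen) were higher, and ZIP9 (-0.79 ± 0.18, SE; limma's adjusted p = 0.0428) was lower. ZIP1 passed in 1 of the 6 fits without 1 array, that without control replicate 1 (limma's adjusted p 0.0265 to 0.128), and ZIP9 in 0 (0.0615 to 0.107). Without any 1 array the count of lower genes was 1, and that of higher genes 0 to 2, with 2 only without control replicate 1.

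The genes that iron-deficient roots switch on beside NAS1 were mostly lower. Of 12 genes listed for root iron uptake, 10 were lower in OBP4 roots, 0 higher and 2 did not pass, where 8.48% of all loci were lower. Their median difference was -1.46, beside 0.02 for all loci. At an unadjusted p below the same threshold, 11 were lower and 0 higher. The list is wider than uptake itself. It also holds the metal transporter genes MTP3 (-0.94), HMA3 (-1.67) and IREG2 (-1.75), which are not iron uptake genes and were named after their values were seen. CYP82C4, of coumarin synthesis, differed by -3.89 ± 0.22 (SE; limma's adjusted p = 0.00069), AT3G12900, a 2OG-Fe(II) oxygenase gene on the array annotation, by -3.16 ± 0.20 (limma's adjusted p = 0.00082) and the ferric reductase gene FRO2 by -2.89 ± 0.11 (limma's adjusted p = 0.000414). The iron transporter gene IRT1, named after its values were seen, stood at 11.87, 12.38 and 12.29 in OBP4 roots, against 14.16, 14.09 and 14.33 in control roots, and differed by -2.01 ± 0.16 (SE), close to the NAS1 difference of -2.26. AT3G12900 was dim in OBP4 roots (6.11 to 6.32), so its size is less exact. The proton pump gene AHA2 and the coumarin exporter gene ABCG37 did not pass, and AHA2 stood near the top of the range in both groups (15.79 to 15.86 in OBP4 roots and 15.81 to 15.92 in control roots).

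Of 14 genes listed for nicotianamine transport, 1 was higher, 1 lower and 12 did not pass, with a median of -0.03. The list takes in family relatives and metal carriers, such as ZIFL1, ZIFL2 and OPT3. Not every member is known to move nicotianamine. The share in each direction, 7.14%, was near that of all loci, 5.23% higher and 8.48% lower. YSL3, a plasma membrane carrier of metal-nicotianamine complexes, stood at 14.59, 14.86 and 14.87 in OBP4 roots, against 14.26, 14.25 and 14.33 in control roots (0.49 ± 0.10, SE; limma's adjusted p = 0.0297). YSL6, an internal-membrane member of the same family, was lower by -0.39 ± 0.09 (SE; limma's adjusted p = 0.0469). Of the fits without 1 array, both passed only in that without OBP4 replicate 1, and limma's adjusted p ran from 0.0151 to 0.0976 for YSL3 and from 0.0446 to 0.141 for YSL6. YSL6 lost its call under quantile normalization, median centring and cyclic loess.

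ZIF1, the vacuolar carrier that traps nicotianamine with zinc, stood at 15.52, 15.52 and 15.48 in OBP4 roots, against 15.21, 15.31 and 15.15 in control roots; its groups did not overlap, but the difference of 0.29 ± 0.07 (SE) did not pass (limma's adjusted p = 0.0507), though it did with the brightest row per locus, without the dimmest 25% of loci and with trend and robust settings. YSL2, a carrier of iron and copper complexes, lay within 15.55 to 15.61 in OBP4 roots and 15.55 to 15.66 in control roots. Both ranges are near the highest value in the arrays, 15.93. YSL1, a carrier known from leaves and seeds, stood at 10.02, 8.81 and 8.78 in OBP4 roots, against 8.94, 8.10 and 8.97 in control roots, with overlapping groups. Its high array was OBP4 replicate 1, which also had the highest shoot markers. OBP4 replicates 2 and 3 had near-equal YSL1 levels, with shoot marker medians of 11.06 and 13.52. The YSL1 difference was 0.53 ± 0.43 (SE), and 0.25 ± 0.35 with the shoot marker covariate, which was added after the data were seen. The part of shoot RNA in the YSL1 levels was not tested.

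Of 16 genes that supply SAM and recycle the by-product of the NAS reaction, limma called 0 higher and 0 lower, where 13.7% of all loci passed in either direction, and at an unadjusted p below the same threshold 1 was higher and 0 lower. Their differences ran from -0.14 to 0.27, with a median of -0.01. They include SAM synthetase, methionine synthase and methylthioadenosine recycling genes, and 9 of the 16 had a mean of 15 or more, near the highest value in the arrays (15.93). Of 16 metal efflux and storage genes, NRAMP3, a vacuolar metal exporter, was higher (0.70 ± 0.11, SE; limma's adjusted p = 0.016), HMA2, a zinc pump that loads the xylem, was lower (-0.73 ± 0.09, SE; limma's adjusted p = 0.00617) and 14 did not pass, shares near or below those of all loci (5.23% higher and 8.48% lower). NRAMP3 lost its call without OBP4 replicate 2, OBP4 replicate 3 or control replicate 2 (limma's adjusted p 0.0196 to 0.0626 over the 6 fits).

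**Figure D4:**
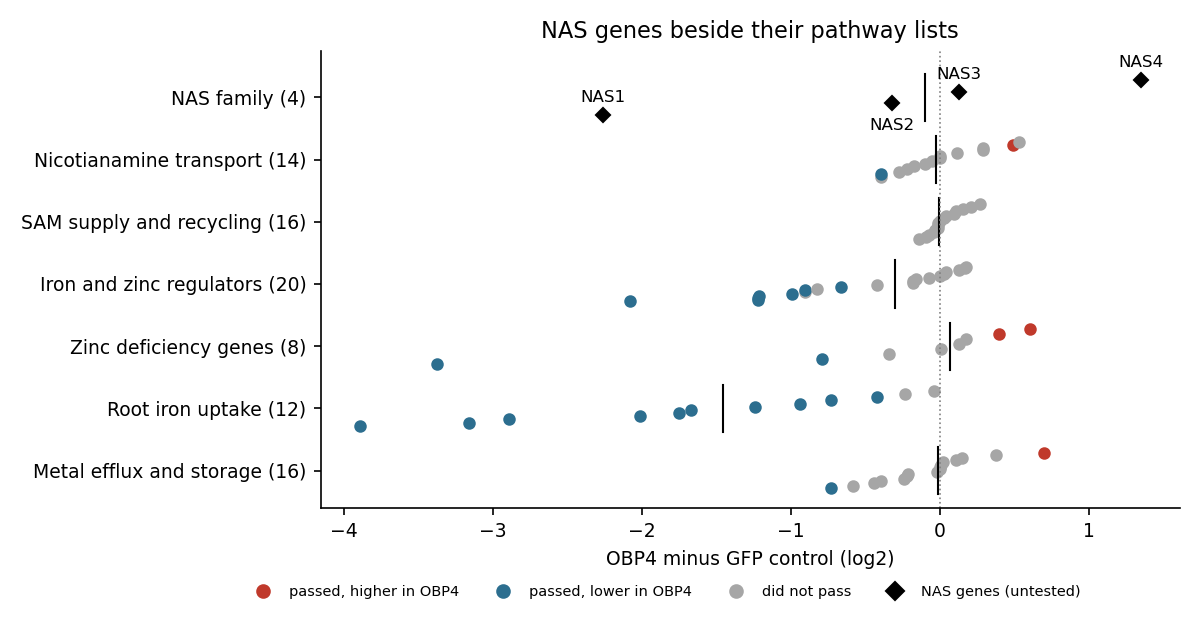
OBP4 minus GFP control difference (log2) of each NAS gene (diamonds) and of each member of 6 pathway lists (points coloured by limma's call), with the median of each row as a vertical line and the number of genes in brackets. NAS1 (-2.26) and NAS4 (1.35) lie far apart, genes listed for root iron uptake lie below 0 (median -1.46), and SAM supply genes cluster around 0.

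Among loci with a symbol, those with array profiles nearest to each NAS gene, by root mean square distance between deviations from their own 6-array mean, were in none of the lists. Nearest to NAS1 were ATPUP20 (0.0917 on the log2 scale), in a family related to purine transporters, RBL7 (0.139), a rhomboid-like protein, and CYP96A14P (0.144), a cytochrome P450 locus. Nearest to NAS4 were QRT3 (0.0476), a polygalacturonase gene, ABO3 (0.0864), which is WRKY63, and KAN2 (0.115), a KANADI transcription factor gene. Within a distance of 0.25, loci without a symbol included, there were 91 loci around NAS1 and 239 around NAS4.

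The profiles of NAS2 and NAS3 were commonplace by the same measure. NAS2 lay nearest to FZR2 (0.0237), LGT5 (0.0244) and MOP10 (0.0275), with 14485 loci within 0.25, and NAS3 nearest to SVL4 (0.0438), EGY3 (0.0534) and PIRL7 (0.0617), with 11509 within 0.25. Since the arrays form 2 groups, this distance is set largely by the size and sign of the group difference.

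**Figure D5:**
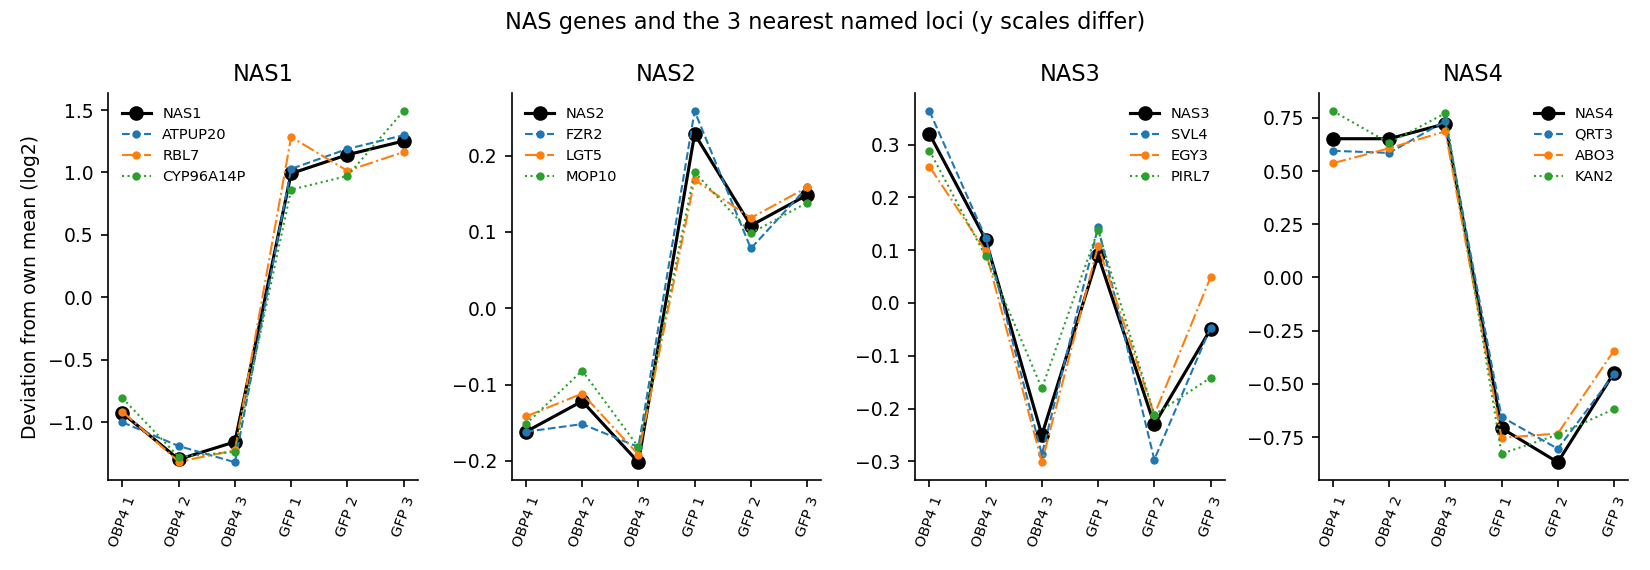
Deviation of NAS1 to NAS4 (black) and of the 3 named loci nearest to each from their own mean over the 6 arrays (log2), with OBP4 arrays left and GFP control arrays right; lines only link the points of a gene, and y scales differ. NAS1 and NAS4 step between groups in opposite directions, NAS2 steps by a small amount and NAS3 varies without a step.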

How the data were processed

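The authors deposited, for each of 6 one-colour arrays, a table of log2 values for 37118 gene models (3 or 4 probes for most), which the tables' own titles name as RMA; software, settings and genome build were not given in the sources used here. A second deposited table of log2 values, of unstated normalization, served as an alternative. Rows of a locus were averaged, without further normalization or filter. RefSeq symbols (TAIR10.1) covered 98.1% of loci.

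OBP4 and GFP control arrays were compared with limma 3.58.1 (lmFit, eBayes; R 4.3.3) in a two-sided test, adjusted by Benjamini-Hochberg across 32627 loci, with a threshold of 0.05; "passed", and "higher" or "lower" for genes outside the NAS family, mean past it unless the text says otherwise. The labels' protocols state no test. With 3 arrays per group, their number limits the precision. The fit was tested on simulated data. Gene lists, members and naming rules (the NAS genes, OBP4, up to 3 called genes per list, known NAS regulators and transporters, and the 3 nearest profiles) were chosen with earlier results of these data known. The alternatives tried appear in the closing section.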

Additional observations from a re-analysis of the deposited data

Results flagged for a closer look

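The second deposited table, on which no result above rests, held differences among the same pathway genes under its own labels. Past limma's threshold there and different by at least 1 on the log2 scale were 6 pathway genes, all lower under the OBP4 labels. Without that cut on size, 1 regulator, 2 zinc-deficiency genes and 2 metal efflux genes passed there as higher. Those that passed as lower were 2 transport genes, 3 regulators, 2 iron uptake genes and 2 metal efflux genes. Of all loci, 5.55% passed there in either direction. The 3 related bHLH factor genes of the iron deficiency response, BHLH39, BHLH100 and BHLH101, differed by -2.35, -2.20 and -1.94. BHLH39 stood at 10.13, 10.09 and 9.79 under the OBP4 labels and 12.47, 12.19 and 12.39 under the control labels (limma's adjusted p = 0.0011), while its groups overlapped in the arrays (-0.42). FRO2 differed by -1.72 (-2.89 in the arrays), and IREG2, an iron and nickel efflux gene, by -1.01 (-1.75 in the arrays). The other genes listed for root iron uptake did not pass there. Of these, all but F6'H1 (0.11) also lay below 0, among them CYP82C4 (-2.71) and IRT1 (-1.46). OPT3, a phloem metal transporter gene, differed by -1.12 (limma's adjusted p = 0.00232), against 0.12 in the arrays. Of the 22 shoot markers, 13 were higher in that table under the OBP4 labels and 0 were lower. Among all 32627 loci there, 1034 were higher and 778 lower. None of the 4 NAS genes passed, beside 5.55% of all loci in either direction. The difference between the tables was not tested.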

How the results depend on the processing

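The NAS1, NAS2, NAS3 and NAS4 differences kept their direction and stayed within 1 SD of the reported value under quantile normalization, median centring, cyclic loess, the brightest row, eBayes with trend and robust settings, the replicate block and the shoot marker covariate; leaving out the dimmest 25% of loci left NAS3 out. In the second table they were 0.02 for NAS1, -0.01 for NAS2, 0.09 for NAS3 and -0.39 for NAS4, so the sign turned for NAS1 and NAS4. It also turned for the called genes MYB10 (0.11 ± 0.12, SE), YSL3 (-0.08 ± 0.08), IRT3 (0.29 ± 0.08) and F6'H1 (0.11 ± 0.08). The same held for YSL1 (-0.21 ± 0.2) and ZIF1 (-0.02 ± 0.11), which had not passed. None of these genes passed in the second table, and the values of NAS1 (SE 0.08), MYB10 and ZIF1 there were smaller than their SE. The cause was not tested. Without 1 array the differences ran from -2.36 to -2.17 for NAS1, -0.35 to -0.29 for NAS2, 0.00 to 0.28 for NAS3 and 1.25 to 1.46 for NAS4.

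Over all loci the test called 1705 as higher and 2767 as lower. These counts were 1034 and 778 in the second table, 2561 higher with trend and robust settings, and 892 to 1309 higher and 1571 to 2048 lower without 1 array. With the replicate number as a block, 588 were higher and 1114 lower, NAS members past the threshold as lower numbered 1 and not 2, transport genes past it numbered 0 higher and 0 lower, zinc-deficiency genes 0 higher and 1 lower, and metal efflux genes 0 and 0. Deviations of same-numbered arrays correlated at -0.197, 0.093 and -0.17, and those of differently numbered arrays at -0.272 to 0.36. With so few arrays per group, these values cannot decide whether the replicate number marks a pairing.

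In the second table the counts of higher and lower genes were 0 and 0 for NAS, 0 and 2 for transport, 1 and 3 for regulators, 0 lower for zinc deficiency, 2 lower for iron uptake, and 2 and 2 for metal efflux. With trend and robust settings they were 3 and 3 for transport, 1 higher for SAM supply, 1 higher for regulators and 4 lower for metal efflux. Without the dimmest loci they were 2 and 3 for transport and 2 and 2 for metal efflux. With the brightest row, 2 transport genes were higher. Transport genes lower were 0 under quantile normalization, median centring, cyclic loess and the shoot covariate, and metal efflux genes lower were 2 under quantile normalization. With that covariate, 1 NAS gene was lower, 0 zinc-deficiency genes higher and 1 lower, and 3 metal efflux genes lower. Without 1 array, the counts of higher and lower genes were 1 and 1 for NAS, 0 to 1 and 0 to 1 for transport, 0 and 0 for SAM supply, 0 and 5 to 7 for regulators, 0 to 2 and 1 for zinc deficiency, 0 and 9 to 10 for iron uptake, and 0 to 1 and 1 to 2 for metal efflux.

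OBP4 itself in OBP4 roots, and NAS1, FIT and IRT3 in control roots, lie near the arrays' highest values. ZIF1, YSL2, BZIP19, AHA2 and many SAM supply genes do so in both groups. NAS3 in both groups and MYB72 in OBP4 roots lie near the dim end. How far this limits their differences was not tested.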

Other observations

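In the second deposited table, NAS1 was at 15.46, 15.54 and 15.44 under the OBP4 labels and 15.49, 15.51 and 15.37 under the control labels, all above the control arrays (15.08 to 15.34). NAS4 was at 8.72, 8.26 and 8.68 under the OBP4 labels and 8.80, 8.88 and 9.14 under the control labels. Its mean under the control labels minus that of the control arrays was -2.98 on the log2 scale, a gap reached by 133 of the 32627 loci (0.408%). NAS2 (-0.14) and NAS3 (0.15) had control means close to those of the arrays. OBP4 itself averaged 13.96 ± 0.04 under the OBP4 labels and 13.95 ± 0.13 under the control labels (SD, n = 3 each). How the table was made is not stated in its header or in the labels, and the origin of the NAS4 gap was not tested.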
